A study of Homo sapiens with 6 samples.

Results

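The genes described here are 55 genes of DNA replication and S phase, taken from the 19775 genes that the arrays measured by a probe set with 1 gene symbol. A probe set is a group of short oligonucleotides that together read 1 transcript. The genes were chosen by symbol, each was represented by its probe set with the highest mean signal over the 6 arrays, and all 55 were measured. The study transfected SUM149 cells, an established human line of inflammatory breast cancer, with an siRNA pool at 200 nmol/L in oligofectamine and read total RNA on Affymetrix HG-U133 Plus arrays. Cells given the siGENOME Non-Targeting pool form the siControl group (3 arrays), and those given the ON-TARGET Plus SMART pool against TIG1, a retinoid-induced gene now named RARRES1, form the siTIG1 group (3 arrays). All cells grew in Ham's F-12 medium with serum, insulin and hydrocortisone, and no untransfected cells were analysed here. The groups therefore differ in the siRNA product line as well as in its target. The labels used here state neither the time from transfection to harvest nor whether replicates were separate cultures, so the spread behind each p-value is that between samples and may be technical only.

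Before a cell copies its DNA, the origin recognition complex with CDC6 and CDT1 loads the MCM helicase onto origins during G1. Kinases then turn the loaded helicase into an active fork by adding CDC45 and the GINS complex, and polymerases, the PCNA clamp and ligase copy both strands. Most of these genes are transcribed as cells pass from G1 into S phase under E2F transcription factors, so their combined transcript level is widely used as a sign of how many cells in a culture are cycling. In bulk RNA, fewer cells in S phase and less of these transcripts per cell cannot be told apart.

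Values are log2 signals, on which a difference of 1 is 2-fold. The arrays of siControl replicates 1 and 2 correlated at 0.998 over probe sets, as did those of the siTIG1 group (0.998 to 0.999), whereas siControl replicate 3 correlated with the other controls at 0.985. The array of siControl replicate 3 also had the widest gap between 3' and 5' control probe sets, which grows as RNA degrades: 3.21 for ACTB where siControl replicates 1 and 2 had 2.73 and 2.62 and the siTIG1 arrays 2.14 to 2.34 (exact 2-sided permutation p = 0.1 between groups, the smallest that 3 against 3 allow). For GAPDH the gap was 0.57 on that array and 0.46 to 0.48 on the other 5. TIG1 itself, on 1 of its 3 probe sets, read 11.89 and 11.88 on siControl replicates 1 and 2, 13.55 on siControl replicate 3, 11.72 on siTIG1 replicate 1 and 10.95 on both siTIG1 replicates 2 and 3. On the others the array labelled siTIG1 replicate 1 read 10.72 against 11.04 and 10.92 on siControl replicates 1 and 2, and 12.69 against 12.65 and 12.61, nearer to these controls on all 3 probe sets than to the other siTIG1 arrays. Of 7 basal and epithelial markers, EPCAM read 14.25 to 14.46, KRT5 12.26 to 13.01 and KRT14, the dimmest, 7.77 to 8.84, near the median gene level of 8.74. Without siControl replicate 3, 6 of the 7 passed the test, 4 higher (among them CDH3 at 0.49) and 2 lower (KRT14 at -0.32 and EGFR at -0.86). EGFR read 12.47 and 12.49 on siControl replicates 1 and 2, 14.22 on siControl replicate 3 and 11.61, 11.59 and 11.67 on siTIG1 arrays. On siControl replicate 3 CDH1 differed by 0.91 and KRT14 by -1.05 from the mean of the other controls. Summed log2 signal over 6 leukocyte markers was 47.0 to 48.5 on control and 48.0 to 48.2 on siTIG1 arrays, with none listed at 0. Of these CD14 alone passed without siControl replicate 3, at 7.67 and 7.62 on the other controls, 8.95 on siControl replicate 3 and 8.48, 8.48 and 8.37 on siTIG1 arrays. Over 5 endothelial markers the sum was 38.9 to 39.3 and 39.3 to 39.5, and none passed. Over 7 fibroblast markers the sum was 56.2 to 57.2 on control and 57.7 to 58.9 on siTIG1 arrays, of which the proteoglycan gene DCN alone passed the test without siControl replicate 3. Over 5 luminal markers it was 43.8 to 44.6 and 45.2 to 45.4, with GATA3 (10.83 to 11.24 on control and 11.44 to 11.69 on siTIG1 arrays) the 1 that passed and the receptor gene PGR the dimmest at 6.85 to 6.98. Their part in the results below was not tested.

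On the array of siControl replicate 3, replication genes read far below the other controls. Their median difference from the mean of siControl replicates 1 and 2 was -1.13, against 0.02 over all genes tested. At least 2-fold lower were 34 of the 55 members, where 2.01% of all genes were, and none was 2-fold higher (1.51% of all genes). The signal lay below both other controls for 52 members (38.3% of all genes), leaving ORC2 and ORC4 above both and ORC3 between them. Among the 50 genes with the lowest difference on this array 10 were members, and among the lowest 100, 15 were. This comparison is a single array against 2, singled out with earlier results known, so it carries no test.

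The siTIG1 arrays lay between these extremes. Against siControl replicates 1 and 2, 41 of 55 members fell in the siTIG1 group (limma adjusted p under 0.05, 14.9% of all genes tested) and none rose (12.3% of all genes, and 27.2% in either direction), with a median difference of -0.25, against 0.02 over all genes. For 46 members all 3 siTIG1 arrays lay below both of these controls (24.4% of all genes), and for 43 they also lay above siControl replicate 3 (6.56%). With all 6 arrays in the fit no member passed (7.32% of all genes did, 4.17% lower and 3.15% higher), limma with a trended, robust variance also called 0, and 3 members (ORC4, ORC5 and RFC1) had an unadjusted p under 0.05, where 21.9% of all genes had one. The median difference then was 0.13 and the members' median standard error 0.31, compared with 0.07 for all genes. Without siControl replicate 3 it was 0.06 for both. In 4 members (CDT1, ORC4, ORC5 and RFC1) the 3 siTIG1 arrays and all 3 controls did not overlap, 7.27% of members against 32.0% of all genes. The comparison without siControl replicate 3 uses the same siTIG1 arrays and 2 of the 3 controls, so it is not independent of the fit over all arrays.

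**Figure D1:**
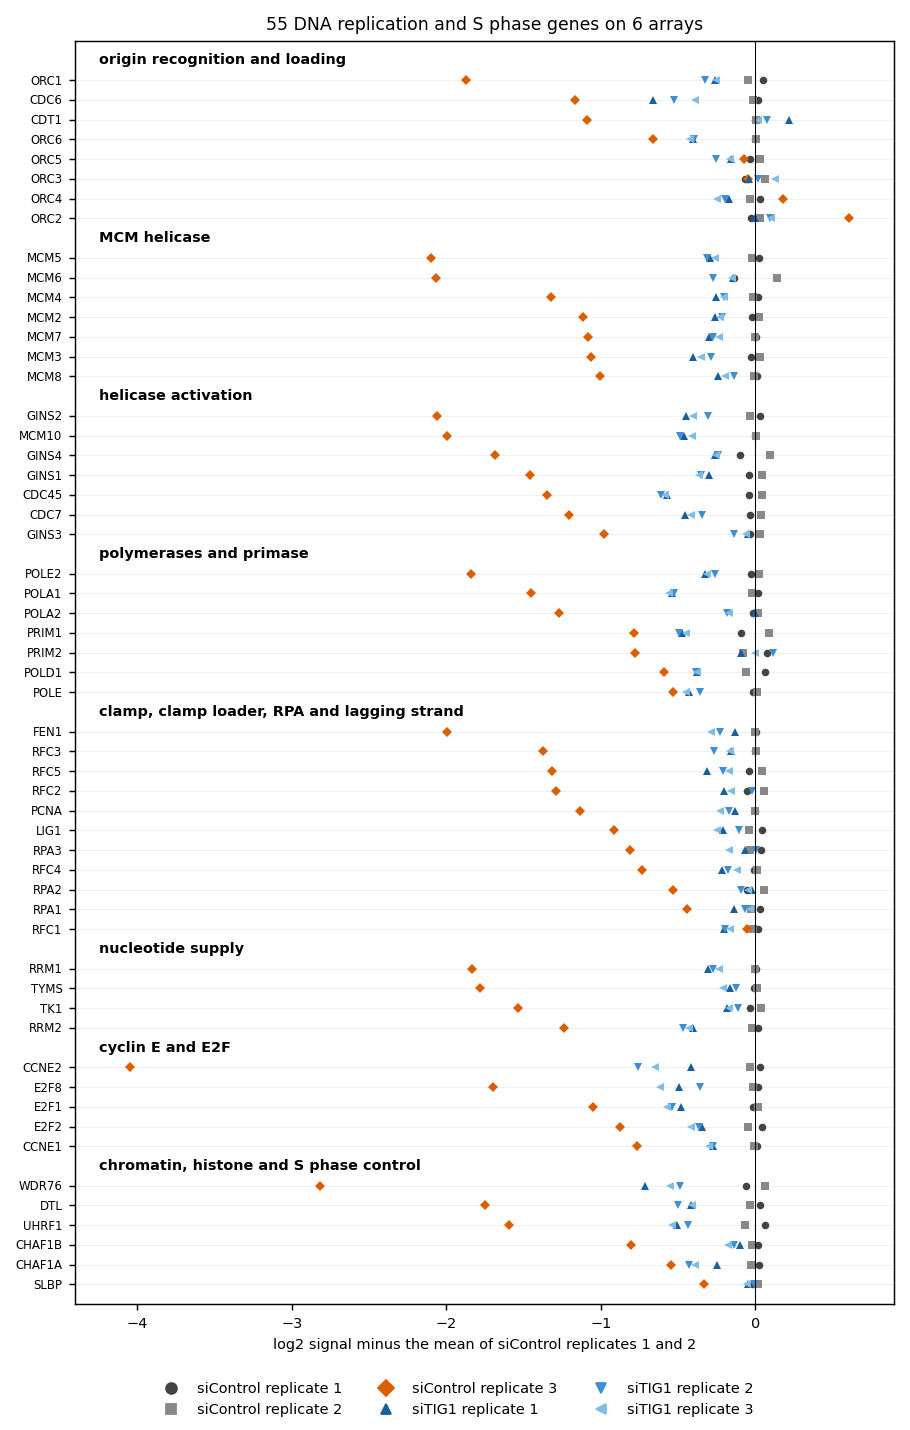
Log2 signal of each of the 55 genes on 6 arrays, as the difference from the mean of siControl replicates 1 and 2 (x axis), with genes in rows grouped by role and 1 symbol per array. The diamonds of siControl replicate 3 lie below both other controls in 52 genes, and the triangles of the siTIG1 arrays lie between in 43.

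**Figure D2:**
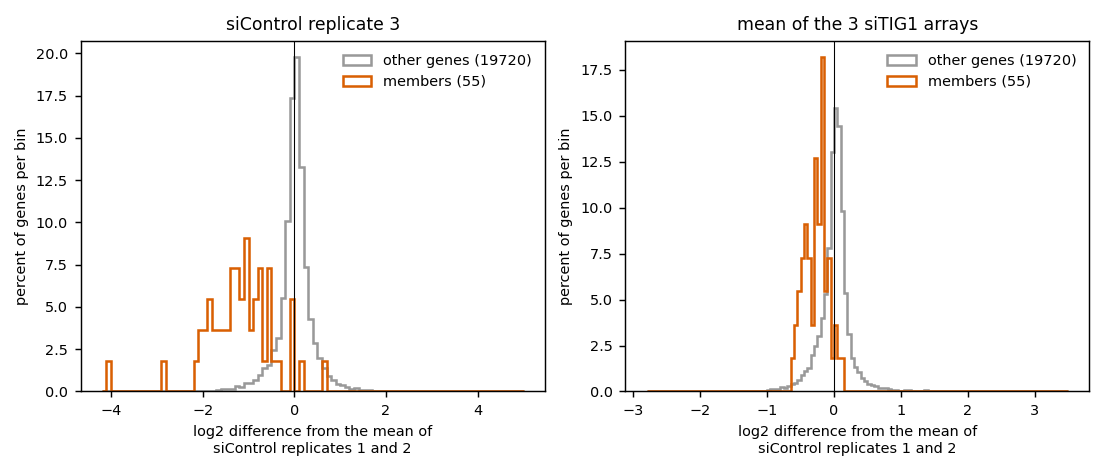
Distribution of log2 differences from the mean of siControl replicates 1 and 2 for members and for all other genes, as percent of genes per bin, for siControl replicate 3 (left, bins of 0.1) and for the siTIG1 mean (right, bins of 0.05). The members' median is -1.13 on the left and -0.25 on the right, while that of other genes is close to 0 in both.

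Replication genes share short promoter elements, and the promoters of 5 members with the largest differences on siControl replicate 3 are shown because these genes were low together on that array. They are the 5 with the largest difference that the RefSeq promoter table holds. Each is the 250 bases before the RefSeq start (GRCh38.p14), 5' to 3' on the gene's strand, and capitals mark matches to E2F-type letters, searched as TTTCCCGC, TTTCGCGC, TTTGGCGC and TTTGCCGC on both strands. TTTGGCGC and, on the opposite strand, TTTCGCGC can overlap.
MCM6, chr2:135876444-135876693, strand -: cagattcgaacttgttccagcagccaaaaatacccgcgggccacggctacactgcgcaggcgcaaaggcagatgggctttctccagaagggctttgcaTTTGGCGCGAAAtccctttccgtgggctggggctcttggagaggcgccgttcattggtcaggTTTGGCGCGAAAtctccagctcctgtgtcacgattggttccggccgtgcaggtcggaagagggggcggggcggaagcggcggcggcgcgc
GINS2, chr16:85688955-85689204, strand -: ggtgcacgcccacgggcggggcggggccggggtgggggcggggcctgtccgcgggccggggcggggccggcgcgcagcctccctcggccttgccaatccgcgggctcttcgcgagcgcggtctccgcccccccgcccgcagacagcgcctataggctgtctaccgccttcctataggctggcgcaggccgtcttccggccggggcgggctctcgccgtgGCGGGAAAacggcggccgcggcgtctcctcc
FEN1, chr11:61792661-61792910, strand +: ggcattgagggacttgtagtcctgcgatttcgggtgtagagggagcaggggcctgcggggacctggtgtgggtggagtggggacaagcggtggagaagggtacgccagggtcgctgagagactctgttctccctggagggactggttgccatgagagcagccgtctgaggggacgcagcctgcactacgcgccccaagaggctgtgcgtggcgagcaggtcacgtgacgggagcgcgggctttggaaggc
MCM10, chr10:13161308-13161557, strand +: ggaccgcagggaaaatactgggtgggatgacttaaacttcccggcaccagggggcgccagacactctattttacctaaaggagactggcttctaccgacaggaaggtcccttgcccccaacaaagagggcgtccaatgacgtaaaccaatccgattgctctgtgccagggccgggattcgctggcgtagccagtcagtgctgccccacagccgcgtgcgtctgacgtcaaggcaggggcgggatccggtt
ORC1, chr1:52404424-52404673, strand -: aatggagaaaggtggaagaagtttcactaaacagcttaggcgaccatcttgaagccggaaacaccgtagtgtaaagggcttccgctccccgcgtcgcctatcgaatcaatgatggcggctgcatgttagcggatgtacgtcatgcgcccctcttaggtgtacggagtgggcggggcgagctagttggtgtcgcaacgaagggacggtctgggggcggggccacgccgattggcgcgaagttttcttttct
The MCM6 promoter holds overlapping matches at 2 places and that of GINS2 holds 1 on the other strand, while the windows of FEN1, MCM10 and ORC1 hold none of these letters.

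RefSeq promoters were matched for 47 of the 55 members, each a window of 250 bases before to 50 after the start. E2F-type letters were in 23 of these 47 windows (48.9%), in 4.36% of the windows of all genes tested and in 3.33% of all promoters in the table. The CCAAT box, bound by NF-Y, was in 55.3% of member windows and 36.1% of those of genes tested (35.7% of all promoters). The letters TTTGAA of the CHR element, known from mitotic genes, were in 1 of 47 member windows (2.13%) against 11.9% of genes tested and 15.4% of all promoters. The median difference on siControl replicate 3 was -1.13 for the 23 members with E2F-type letters and -0.78 for the 24 without. In the siTIG1 comparison without that array the medians were -0.27 and -0.22, with 18 and 17 members fallen. Members were chosen by function, and no test of these differences was made.

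**Figure D3:**
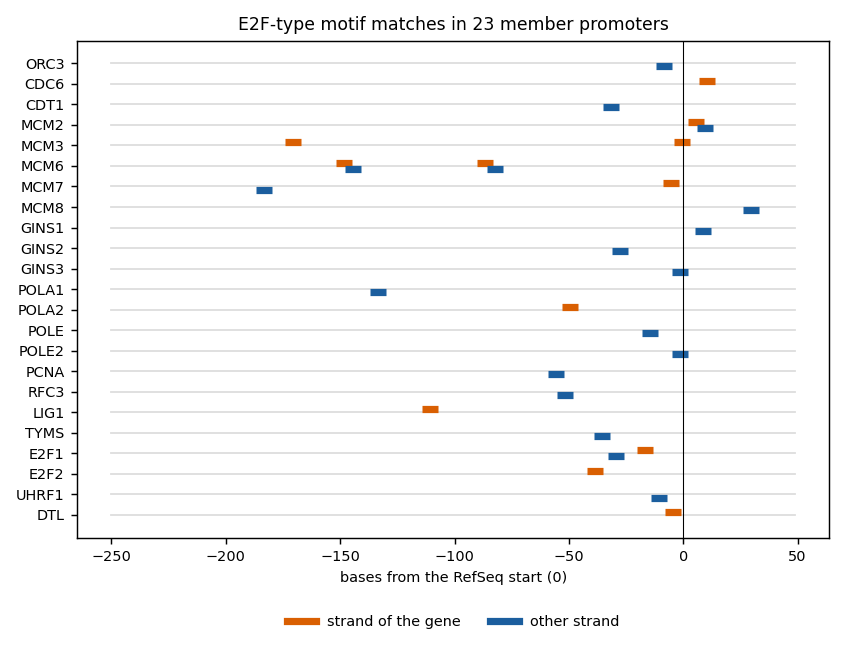
Positions of E2F-type letter matches in the 23 member promoters that hold one, in bases from the RefSeq start (x axis), with genes in rows and the gene's own strand and the other strand in separate colours. Grey lines span the window searched, and most matches lie within 60 bases of the start.

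Origin recognition and licensing genes were the least uniform group. ORC1, the ATPase subunit of the origin recognition complex, read 9.66 and 9.57 on siControl replicates 1 and 2, 7.74 on siControl replicate 3 and 9.35, 9.29 and 9.36 on the siTIG1 arrays. It was 3.66-fold lower on siControl replicate 3 and fell in the siTIG1 group by 0.28 relative to replicates 1 and 2 (SE 0.06, limma adjusted p = 0.0048). All siTIG1 arrays lay below both of these controls and well above the remaining one. On siControl replicate 3 the other core subunits did not follow ORC1, while ORC4 and ORC5 also fell in the siTIG1 group without that array. ORC2 read 10.81 and 10.87 on siControl replicates 1 and 2, 11.45 on replicate 3 and 10.84, 10.94 and 10.94 on siTIG1 arrays, so siControl replicate 3 was the highest and the other 5 overlapped. ORC4 read 11.56 and 11.49, then 11.71 on siControl replicate 3 and 11.36, 11.33 and 11.28 on siTIG1 arrays, where all siTIG1 values were below every control. Its difference was -0.20 ± 0.05 (SE, limma adjusted p = 0.019) without siControl replicate 3 and -0.26 ± 0.07 (SE, limma adjusted p = 0.081) with it. The second ORC4 probe set also fell without that array, by 0.43, but siControl replicate 3 lay below the other controls on it. ORC3 differed by -0.05 on siControl replicate 3 and by 0.04 in the siTIG1 group, and ORC5 by -0.07 and -0.19, of which the ORC5 siTIG1 difference passed (limma adjusted p = 0.031). Further ORC5 probe sets, at -0.15 and 0.15, did not pass (limma p of 0.20 and 0.35 adjusted across probe sets).

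ORC6, a further subunit needed for helicase loading, gave the smallest p of its group. It read 11.69 and 11.69 on siControl replicates 1 and 2, 11.03 on replicate 3 and 11.29, 11.29 and 11.27 on the siTIG1 arrays, and fell by 0.41 ± 0.05 (SE, limma adjusted p = 0.00027). CDC6, which recruits the helicase to origins, was 2.25-fold lower on siControl replicate 3 and its siTIG1 difference was -0.52 ± 0.08 (SE, limma adjusted p = 0.00086). For CDT1, the MCM loading factor, the probe sets disagreed. The chosen one read 11.28 and 11.28 on siControl replicates 1 and 2, 10.19 on replicate 3 and 11.50, 11.36 and 11.30 on siTIG1 arrays, which placed every siTIG1 array above all controls. The difference was 0.10 ± 0.07 (SE, limma adjusted p = 0.3). This probe set is of the x_at type, which can bind several transcripts, and the other CDT1 probe set, at 8.96 and 8.89 on those controls, 8.03 on replicate 3 and 8.61, 8.78 and 8.62 on siTIG1 arrays, fell by 0.26 (limma p of 0.025 adjusted across probe sets). Both CDT1 probe sets were low on siControl replicate 3. In all, 5 of the 8 genes of this group fell without siControl replicate 3 (14.9% of all genes did) and 3 were at least 2-fold lower on that array (2.01%).

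The MCM helicase genes were all low on siControl replicate 3. MCM2 to MCM7 encode the ring that unwinds DNA at the fork, and MCM8 a related helicase of recombination. All 7 were at least 2-fold lower on siControl replicate 3 than on the other controls (2.01% of all genes were), MCM5 the most at -2.10. MCM5 read 11.70 and 11.65 on siControl replicates 1 and 2, 9.57 on replicate 3 and 11.38, 11.36 and 11.41 on siTIG1 arrays. The siTIG1 arrays were narrowly spread and far nearer to replicates 1 and 2, with a difference of -0.29 ± 0.05 (SE, limma adjusted p = 0.0025). The other MCM5 probe set, at -0.15, did not pass (limma p of 0.093 adjusted across probe sets). MCM3 read 12.97 and 13.03, then 11.93 on siControl replicate 3 and 12.60, 12.71 and 12.64 on siTIG1 arrays, a fall of 0.35 ± 0.06 (SE, limma adjusted p = 0.0016) without that array and a difference of 0.01 ± 0.29 (SE, limma adjusted p = 0.99) with it. The fall without that array passed in 6 of the 7 (14.9% of all genes fell), at -0.24 for MCM2, -0.22 for MCM4, -0.27 for MCM7 and -0.19 for MCM8. MCM6 was the exception: it read 12.87 and 13.15 on siControl replicates 1 and 2, 10.94 on replicate 3 and 12.86, 12.73 and 12.86 on siTIG1 arrays. Here the first 2 controls were 0.28 apart, the widest gap of any member, and the siTIG1 difference of -0.19 ± 0.08 (SE, limma adjusted p = 0.13) did not pass. A far dimmer MCM6 probe set (mean level 6.26) fell by 0.32 (limma p of 0.047 adjusted across probe sets).

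Genes that switch the loaded helicase on had the largest median differences of the fork components. GINS2, a subunit of the GINS complex, read 11.44 and 11.37 on siControl replicates 1 and 2, 9.34 on replicate 3 and 10.95, 11.10 and 10.998 on the siTIG1 arrays. It was 4.17-fold lower on siControl replicate 3 and fell by 0.39 in the siTIG1 group (SE 0.06, limma adjusted p = 0.0012). CDC45, which joins MCM and GINS in the active helicase, read 10.42 and 10.51, then 9.12 on siControl replicate 3 and 9.89, 9.86 and 9.88 on the siTIG1 arrays. Its siTIG1 values lay close together and its fall, 1.51-fold, was exceeded among members by that of CCNE2 only, at -0.59 ± 0.05 (SE, limma adjusted p = 5.4e-05). MCM10, an initiation factor outside the helicase ring, fell by 0.45 and was 3.98-fold lower on siControl replicate 3. CDC7, the catalytic subunit of the kinase that phosphorylates MCM, fell by 0.40 and differed by -1.20 on that array. GINS1 and GINS4 fell by 0.34 and 0.25, whereas GINS3, at -0.08, did not pass on its chosen probe set. The other GINS3 probe set, of nearly the same level, fell by 0.21 (limma p of 0.033 adjusted across probe sets). The group's median on siControl replicate 3 was -1.46, with 6 of 7 genes at least 2-fold lower (2.01% of all genes were). Of the 7, 6 fell without that array (14.9%).

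Among polymerase genes POLE2 had the lowest difference on siControl replicate 3 and POLA1 fell most in the siTIG1 group. POLE2, an accessory subunit of leading-strand polymerase epsilon, read 12.09 and 12.14 on siControl replicates 1 and 2, 10.28 on replicate 3 and 11.79, 11.86 and 11.81 on siTIG1 arrays. That is 3.57-fold lower on siControl replicate 3, with a siTIG1 fall of 0.30 ± 0.05 (SE, limma adjusted p = 0.0024). POLE, the catalytic subunit of the same enzyme, read 10.03 and 10.05, then 9.51 on siControl replicate 3 and 9.61, 9.68 and 9.59 on siTIG1 arrays. Here the siTIG1 arrays came close to siControl replicate 3: the differences from replicates 1 and 2 were -0.41 for siTIG1 and -0.53 for that array. POLD1, the catalytic subunit of polymerase delta, had the same pattern at -0.38 and -0.59. POLA1, which with primase starts each new strand, read 10.53 and 10.49 on siControl replicates 1 and 2, 9.06 on replicate 3 and 9.97, 9.98 and 9.95 on siTIG1 arrays, and had the group's smallest p at -0.54 ± 0.05 (SE, limma adjusted p = 6.3e-05). The primase subunit PRIM1 fell by 0.47, while PRIM2 differed by 0.01 and POLA2 by -0.12 and did not pass. In this group 5 of 7 fell without siControl replicate 3 (14.9% of all genes did) and 3 of 7 were at least 2-fold lower on that array (2.01%).

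The clamp, its loader, single-strand binding proteins and lagging-strand enzymes gave the smallest median siTIG1 difference of the 8 groups, -0.18. FEN1, the flap nuclease that trims Okazaki fragments, read 13.89 and 13.88 on siControl replicates 1 and 2, 11.89 on replicate 3 and 13.76, 13.66 and 13.60 on siTIG1 arrays. It was 3.99-fold lower on siControl replicate 3, but its siTIG1 fall was only 1.16-fold (-0.22 ± 0.06 SE, limma adjusted p = 0.023). PCNA, the sliding clamp, read 13.68 and 13.68, then 12.55 on siControl replicate 3 and 13.55, 13.51 and 13.45 on siTIG1 arrays, a fall of 0.18 (limma adjusted p = 0.036). RFC5 of the clamp loader read 11.60 and 11.69 on siControl replicates 1 and 2, 10.33 on replicate 3 and 11.33, 11.44 and 11.48 on siTIG1 arrays and fell by 0.23 (limma adjusted p = 0.020). Another RFC5 probe set went the opposite way, at 9.12 and 9.34 on those controls, 9.18 on replicate 3 and 9.76, 9.63 and 9.66 on siTIG1 arrays, a rise of 0.46 (limma p of 0.0028 adjusted across probe sets). The RFC5 call thus holds for its brightest probe set only. RFC1, the large loader subunit, differed by -0.05 on siControl replicate 3 and fell by 0.19 in the siTIG1 group, while RFC3, RFC4 and the ligase LIG1 fell by 0.20, 0.17 and 0.19. RFC2 and the 3 RPA genes did not pass, at -0.13 for RFC2 and -0.08, -0.05 and -0.08 for RPA1, RPA2 and RPA3. Of these 11 genes 7 fell without siControl replicate 3 (14.9% of all genes did) and 5 were at least 2-fold lower on that array (2.01%). When replicate number was added to the fit, RFC3 and RFC5 still passed (limma adjusted p = 0.045 and 0.014). FEN1, PCNA, RFC1, RFC4 and LIG1 then did not.

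Genes of deoxynucleotide supply were all at least 2-fold lower on siControl replicate 3, where 2.01% of all genes were. RRM1, the large subunit of ribonucleotide reductase, read 13.36 and 13.35 on siControl replicates 1 and 2, 11.52 on replicate 3 and 13.05, 13.08 and 13.12 on siTIG1 arrays, 3.56-fold lower on siControl replicate 3. The small subunit RRM2, the brightest member, read 15.01 and 14.97, then 13.75 on siControl replicate 3 and 14.59, 14.52 and 14.56 on siTIG1 arrays. Both fell, RRM1 by 0.27 (limma adjusted p = 0.0036) and RRM2 by 0.43 (limma adjusted p = 0.00026). Their other probe sets were lower by less and did not pass. That of RRM1 was at -0.20 and that of RRM2, also bright at a mean level of 14.07, at -0.20 (limma p of 0.075 and 0.060 adjusted across probe sets). Thymidylate synthase TYMS fell by 0.16 and differed by -1.78 on siControl replicate 3. Thymidine kinase TK1 read 11.72 and 11.79 on siControl replicates 1 and 2, 10.22 on replicate 3 and 11.57, 11.64 and 11.58 on siTIG1 arrays, and its difference of -0.15 ± 0.05 (SE, limma adjusted p = 0.06) did not pass although no siTIG1 array reached either control.

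Every gene of the cyclin E and E2F group fell without siControl replicate 3, 5 of 5, where 14.9% of all genes did. With all arrays none of them passed. CCNE2, cyclin E2, which activates CDK2 at the start of S phase, had the lowest difference on siControl replicate 3 of all 19775 genes. It read 11.71 and 11.64 on siControl replicates 1 and 2, 7.63 on replicate 3, 16.5-fold lower, and 11.26, 10.92 and 11.02 on siTIG1 arrays. Its siTIG1 fall was the largest of the members, 1.53-fold without siControl replicate 3, at -0.61 ± 0.09 (SE, limma adjusted p = 0.00091), whereas over all arrays the difference was 0.74 ± 1.08 (SE, limma adjusted p = 0.75). The second CCNE2 probe set had the same order: 9.45 and 9.53 on siControl replicates 1 and 2, 6.78 on replicate 3 and 8.89, 8.46 and 8.79 on siTIG1 arrays. CCNE1, cyclin E1, differed less, by -0.77 on siControl replicate 3 and by -0.28 in the siTIG1 group. E2F1, an activator of S phase transcription, read 11.37 and 11.40 on siControl replicates 1 and 2, 10.34 on replicate 3 and 10.91, 10.85 and 10.81 on siTIG1 arrays, and fell by 0.53 (SE 0.05, limma adjusted p = 1.0e-04). The siTIG1 arrays were about midway between the 2 kinds of control array. E2F2, another activator, fell by 0.38 and E2F8, an E2F repressor, by 0.49. Dimmer E2F2 probe sets, at -0.06 and 0.06, did not pass (limma p of 0.51 and 0.53 adjusted across probe sets).

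The last group holds genes that couple replication to chromatin. WDR76, a WD-repeat protein with S phase expression, read 8.98 and 9.10 on siControl replicates 1 and 2, 6.22 on replicate 3 and 8.33, 8.55 and 8.49 on siTIG1 arrays. It had rank 4 from the lowest of all genes on siControl replicate 3, 7.05-fold lower, and fell by 0.58 in the siTIG1 group (limma adjusted p = 0.00040). The other WDR76 probe set, at -0.30, did not pass (limma p of 0.10 adjusted across probe sets). As the table carries no detection call, a signal as low as 6.22 is not shown to lie above background. UHRF1, which directs maintenance methylation to newly copied DNA, read 13.08 and 12.95, then 11.42 on siControl replicate 3 and 12.51, 12.58 and 12.48 on siTIG1 arrays, with a siTIG1 difference of -0.49 ± 0.06 (SE, limma adjusted p = 0.0003). DTL, an adaptor of the ubiquitin ligase that marks CDT1 for destruction in S phase, fell by 0.44 and CHAF1A, of the histone chaperone CAF-1, by 0.36. The partner subunit CHAF1B, at -0.14, and SLBP, the histone mRNA binding protein, at -0.04, did not pass.

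Of 49 further probe sets of 32 members, 42 read lower on siControl replicate 3 than the mean of the other controls and 19 were at least 2-fold lower. In the siTIG1 group without that array 22 of them fell and 2 rose, those of RFC5 and RFC3 (limma p adjusted across probe sets). The matching shares over all probe sets are not given here, and the shares above are over 1 probe set per gene. The falls were alike on the 3 siTIG1 arrays: the members' median difference from siControl replicates 1 and 2 was -0.26 on replicate 1, -0.27 on replicate 2 and -0.25 on replicate 3. The array labelled siTIG1 replicate 1, nearer to those controls than to the other siTIG1 arrays in TIG1 signal, was thus about as low in replication genes as the others. Of the 41 members that fell, 34 to 37 passed with 1 siTIG1 array left out. Leaving out siControl replicate 1 or 2 as well leaves 1 control array, which is then assumed to vary as the siTIG1 arrays do, and 28 of the 41 passed in either case.

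A list of 50 measured replication and S phase genes that are no members had a median of -0.76 on siControl replicate 3. At least 2-fold lower were 18 (2.01% of all genes were) and 1 was 2-fold higher (1.51%). Without that array 23 fell (14.9% of all genes did), 4 rose (12.3%) and 23 did not pass in the siTIG1 group (median -0.16), and with all arrays 1 rose and none fell. BARD1, a DNA repair partner, fell by 0.47, while POLD4, a small subunit of polymerase delta, rose by 0.53 and RNASEH2C, of ribonuclease H2, by 0.61. RNASEH2C was low on siControl replicate 3 (-1.07) and POLD4 high (1.00). Of 32 genes of G2 and M phase, all read below both other controls on siControl replicate 3 (38.3% of all genes did). Their median was -0.68, and 10 were at least 2-fold lower (2.01%). In the siTIG1 group 14 of these 32 fell and none rose without that array (median -0.16), and the 3 with the smallest p were the spindle motor KIF11 (-0.41), the kinase AURKB (-0.30) and the midzone protein PRC1 (-0.28), and none passed with all arrays.

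Of 20 measured regulators of G1, 4 rose (12.3% of all genes did), 7 fell (14.9%) and 9 did not pass without siControl replicate 3. With all arrays 2 rose (3.15%) and 1 fell (4.17%). Cyclin D1, CCND1, read 12.27 and 12.30 on siControl replicates 1 and 2, 11.77 on replicate 3 and 11.63, 11.61 and 11.61 on siTIG1 arrays, a fall of 0.67 ± 0.05 (SE, limma adjusted p = 1.9e-05) without siControl replicate 3. E2F5 fell by 0.78 and the antiproliferative gene BTG1 rose by 0.77. CDKN1A, the CDK inhibitor p21, read 11.21 and 11.23 on siControl replicates 1 and 2, 12.40 on replicate 3 and 10.82, 10.83 and 10.85 on siTIG1 arrays, so it was high where replication genes were lowest and lowest on the siTIG1 arrays. On siControl replicate 3, 3 of the 20 were at least 2-fold higher (1.51% of all genes were): CDKN1A (1.18), MYC (1.19) and E2F5 (1.13). RB1 alone was at least 2-fold lower (-1.43, where 2.01% of all genes were), and the median of the 20 was 0.02. CDKN1B, the inhibitor p27, read 11.94 and 11.95, then 12.02 on siControl replicate 3 and 12.21, 12.41 and 12.39 on siTIG1 arrays, and rose both without that array (0.39, limma adjusted p = 0.0023) and with it (0.37, limma adjusted p = 0.032). CDKN1A, CDKN1B, MYC and RB1 were named after their values were seen.

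Histone genes of the replication-dependent clusters, made in S phase to package new DNA, were compared in the same way. Of 41 measured, 7 rose (12.3% of all genes did), none fell (14.9%) and 34 did not pass in the siTIG1 group without siControl replicate 3, with a median of 0.08, and 3 rose with all arrays (3.15%). The share that rose is not far from that of all genes. On siControl replicate 3 their median was -0.11 and none was 2-fold lower, but 25 (61.0%) read below both other controls, where 38.3% of all genes did. H2BC5 rose by 0.60, H2AC6 by 0.49 and H2BC21 by 0.30. Transcripts of such genes mostly lack a poly(A) tail, their signals were low (median level 7.61 against 11.15 for the members), and near-identical copies can share probe sets.

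**Figure D4:**
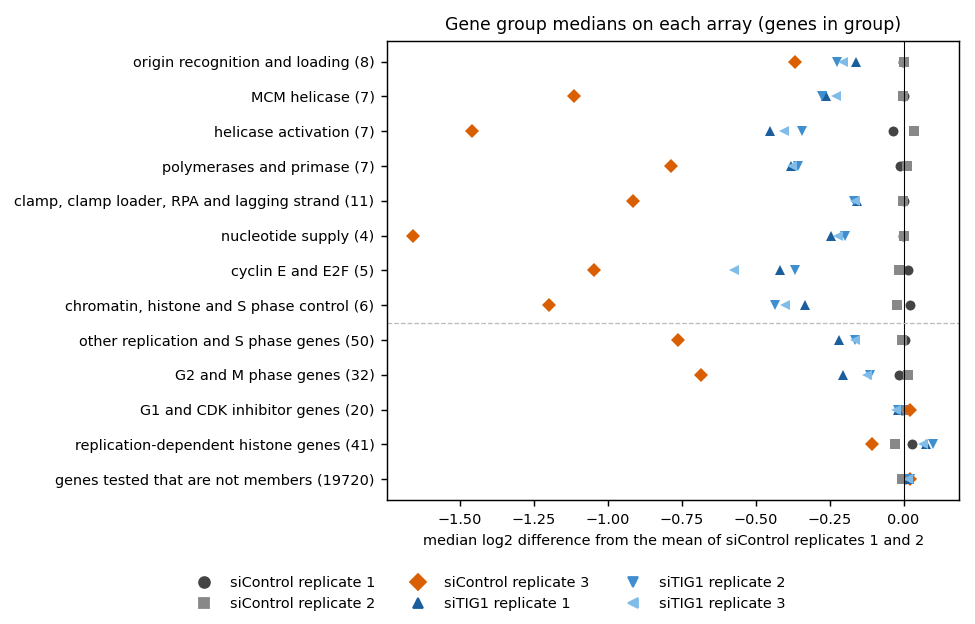
Median log2 difference from the mean of siControl replicates 1 and 2 (x axis) on each of 6 arrays for the 8 role groups of members (above the dashed line) and for other gene lists and all other genes (below it), with the number of genes in brackets. Medians on siControl replicate 3 run from -1.66 to -0.37 in the role groups, and are 0.02 for G1 regulators and -0.11 for histone genes.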

How the data were processed

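Each of the 54675 probe sets has 1 deposited log2 value per array, summarised and normalized by the authors. Base 2 was inferred from the span of 4.28 to 15.59. The submitters' processing notes name MAS5 and RMA without saying which made the values, and the sources used here give no genome build. Array medians of 7.87 to 7.90, and sorted values at most 0.093 apart, led to use without further scaling, which hides any change common to most genes. No detection call was given. Left out were 62 control probe sets, 1801 with several symbols and 11721 with none listed, which left 41091 and 19775 genes. RefSeq GRCh38.p14 supplied current symbols by gene number for 19735 of these. The probe set with the highest mean stood for its gene, and list genes lacking one were not analysed here.

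Sample titles gave groups and replicate numbers. limma 3.58.1 (R 4.3.3) fitted siTIG1 against siControl without a block, 2-sided, first over 6 arrays and then without siControl replicate 3. Benjamini-Hochberg adjustment covered all 19775 genes, at a threshold of 0.05. A difference is the log2 siTIG1 mean minus the siControl mean, with its moderated standard error, and precision is limited by how few arrays there are. The fit was first tested on simulated data. Python 3.11.15 searched the promoter letters. Members, lists and the choice to leave out siControl replicate 3 were made with earlier results of these data known. By rule, array values are given in each role group for the largest siControl replicate 3 difference, the smallest p without that array and genes opposite to the group's median, and for up to 3 genes by p of each other list. Further members shown array by array (MCM6, POLE, PCNA and TK1) were picked on their values. Alternatives covered normalization (quantile, median centring), dim genes, the probe set rule (mean, x_at last, all), variance (trended, robust), the replicate block and each array left out.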

Additional observations from a re-analysis of the deposited data

How the results depend on the processing

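With all arrays the number of members lower was 0, and it was 1 under median centring and with the mean of probe sets (ORC4), and 1 with x_at probe sets last and over all probe sets (RFC1), where 1 was also higher (RFC5). Leaving out 1 array gave 0 to 41 members lower and a median difference of -0.25 to 0.31, with the negative sign and the 41 only without siControl replicate 3. Over the same choices the difference ran from -0.28 to 0.68 for ORC1, -0.29 to 0.77 for MCM5, -0.35 to 0.20 for MCM3, -0.39 to 0.66 for GINS2, -0.30 to 0.63 for POLE2, -0.22 to 0.78 for FEN1, -0.23 to 0.45 for RFC5, -0.27 to 0.65 for RRM1, -0.61 to 1.43 for CCNE2, -0.58 to 0.86 for WDR76 and -0.49 to 0.34 for UHRF1, each negative only without siControl replicate 3, apart from MCM3, which was also at -0.02 without siTIG1 replicate 2. All genes in this listing were positive with all 6 arrays and negative without siControl replicate 3. Not every member changed sign in this way: 17 of the 55 were negative with all 6 arrays, among them ORC6 (-0.19), E2F1 (-0.18), CDC45 (-0.14) and POLA1 (-0.06), though none passed.

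Without that array 28 to 43 members were lower under the alternatives run, where the lowest counts rest on 1 control array, assumed to vary like the siTIG1 arrays. Over all probe sets 2 were higher (RFC3 and RFC5), the difference of RFC5 was 0.044 with the mean of probe sets and that of CDT1 -0.26 with x_at probe sets last. The median on siControl replicate 3 was -1.16 under median centring and -0.99 with the mean of probe sets. Deviations of same-numbered arrays from their group means correlated at -0.08, 0.02 and -0.04. The siControl mean includes replicate 3, which stood apart, so these values cannot show whether same-numbered arrays are paired. With the replicate block 0 members passed with all arrays and 32 without siControl replicate 3, all among the 41. The causes were not tested. Low signals have no stated background, so folds against them can be too small.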
